A study of Mus musculus with 6 samples.

Results

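The genes described are 7 that are known from Schwann cells and peripheral nerve: Mbp, Pmp22, Prx, Sox10, S100b, Ncam1 and Ngfr. They were chosen by symbol, all 7 were found among the 54385 entries of the deposited table, and all 7 passed the low-count filter that left 14767 genes for testing. Polyadenylated RNA came from interscapular brown adipose tissue, the heat-producing fat between the shoulder blades, of 6 C57BL/6N mice. All were fed chow for 20 weeks and kept at 5 °C for 24 hours before the tissue was taken. The 3 control mice (genotype Adcy3-FL/FL, Adipoq-wt/wt) carried floxed Adcy3 alleles without Cre, and the 3 knockout mice (Adcy3-FL/FL, Adipoq-wt/cre) carried the same alleles with Cre under Adipoq control. Cre under Adipoq control acts in adipocytes, so Schwann cells and neurons are not the cells in which Adcy3, the gene for adenylyl cyclase 3, was meant to be removed. The labels give no sex; the series' design text differs from the labels in depot and number of replicates and does not mention cold, which the title of the series does, and the labels were followed. The comparison asks how these genes stood in brown fat whose adipocytes lack the enzyme. The labels list separate replicates but do not say more of the animals, so the tests measure the spread between these libraries.

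Brown fat is densely supplied by sympathetic nerves, which release noradrenaline onto adipocytes in the cold. Schwann cells accompany these fibres. Non-myelinating Schwann cells ensheath several thin axons together, and myelinating Schwann cells wrap single thicker axons of the sensory and motor kind in layers of membrane. Sox10 is the transcription factor that defines the lineage. Mbp, Pmp22 and Prx encode components of the myelin sheath or of the membrane around it. Ncam1, Ngfr and S100b are commonly used for non-myelinating or immature cells or for the lineage as a whole, yet none of them is restricted to it. Brown adipocytes themselves make S100b, a calcium-binding protein that promotes sympathetic innervation when secreted.

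Where 3 values are listed for a group, they stand in the order of its libraries 1 to 3. Total estimated counts were between 13956786 and 17538044 per library. Adcy3 in the knockouts stood at 16.5% of the control mean, with every knockout library below every control. Over all genes, 0.0609% passed the quasi-likelihood test of edgeR at a Benjamini-Hochberg adjusted p below 0.05, which was 4 higher and 5 lower. Skeletal muscle transcripts set the libraries apart: the share of counts from 20 muscle markers was 2.29%, 2.06% and 1.74% across the controls against 0.965%, 0.0749% and 0.0109% across the knockouts. All 20 were detected and tested, with a median log2 fold change of -2.27 and none above 0. None of the 20 passed that test. At an unadjusted edgeR p under 0.05, 4 were lower, beside 7.60% of all tested genes. By its share, knockout library 1 was the knockout nearest to the controls in muscle transcripts. In bulk tissue, fewer cells of a type and less RNA per cell cannot be told apart.

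None of the 7 genes passed the test for a genotype difference. The count was 0 of 7 in edgeR, in DESeq2 and in limma-voom. At an unadjusted p under 0.05 it was 2 of 7, Prx and Ncam1, both lower in knockouts, where 7.60% of all tested genes were lower at that p. The same 2 were the only ones of the 7 in which every knockout library lay below every control, a pattern seen in 10.8% of all tested genes. No gene of the 7 had every knockout above every control, as 7.63% of all tested genes did. The median log2 fold change of the 7 was -0.22, and that of all tested genes was 0.01.

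**Figure D1:**
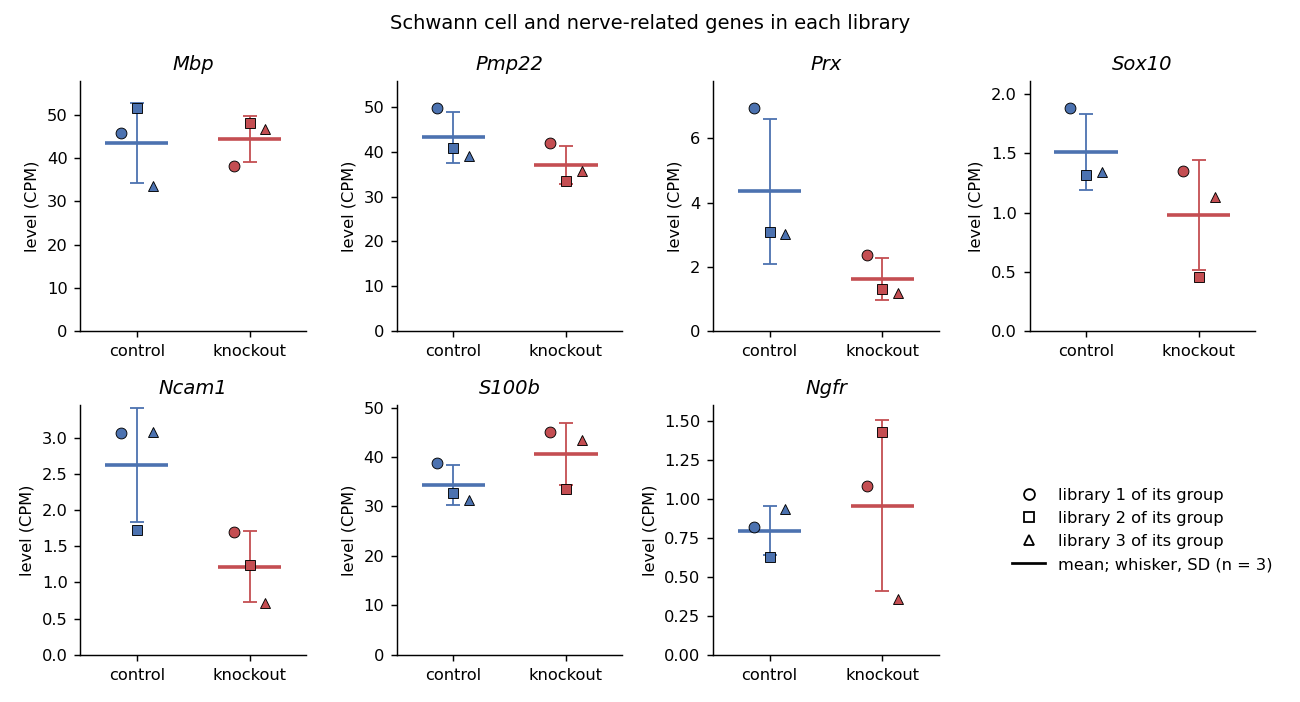
Level of each of the 7 genes in counts per 1000000 (CPM, vertical axis from 0) in the 3 control (blue) and 3 knockout (red) libraries, with mean and SD. Prx and Ncam1 show no overlap between the groups, with knockout means of 1.62 and 1.21 CPM against control means of 4.35 and 2.62 CPM, while the other 5 overlap.

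The order of abundance was compared per kilobase of exon, since longer transcripts give more counts. The lengths used were the union of all annotated exons of a gene, which overstates the length of each single transcript. In controls S100b was highest, at 23.1 ± 2.70 CPM per kilobase, followed by Pmp22 at 18.3 ± 2.44 (SD, n = 3 each). The ranges of this pair touched (21.1 to 26.2 for S100b and 16.6 to 21.1 for Pmp22), though S100b was above Pmp22 within each of the 6 libraries. Mbp followed at 5.14 ± 1.09 CPM per kilobase and was clear of its neighbours on both sides. Before division by length, Mbp and Pmp22 were level in controls, at 43.5 ± 9.23 and 43.2 ± 5.75 CPM (SD, n = 3 each). Their gap thus rests on the lengths used, 8469 bases for Mbp and 2354 for Pmp22, and the overstatement can differ between genes. Far lower came Prx at 0.780 ± 0.403 and Sox10 at 0.496 ± 0.105 CPM per kilobase, with overlapping ranges, then Ncam1 at 0.303 ± 0.0903 and Ngfr at 0.231 ± 0.0452, again overlapping (SD, n = 3 each). In knockouts the first 3 kept this order. The last 4 stood between 0.140 ± 0.0566 (Ncam1) and 0.321 ± 0.153 CPM per kilobase (Sox10; SD, n = 3 each), and every knockout library of Prx was above every knockout library of Ncam1. Sox10, which is close to restricted to glia and melanocytes, was far below S100b and Pmp22 in every library.

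**Figure D2:**
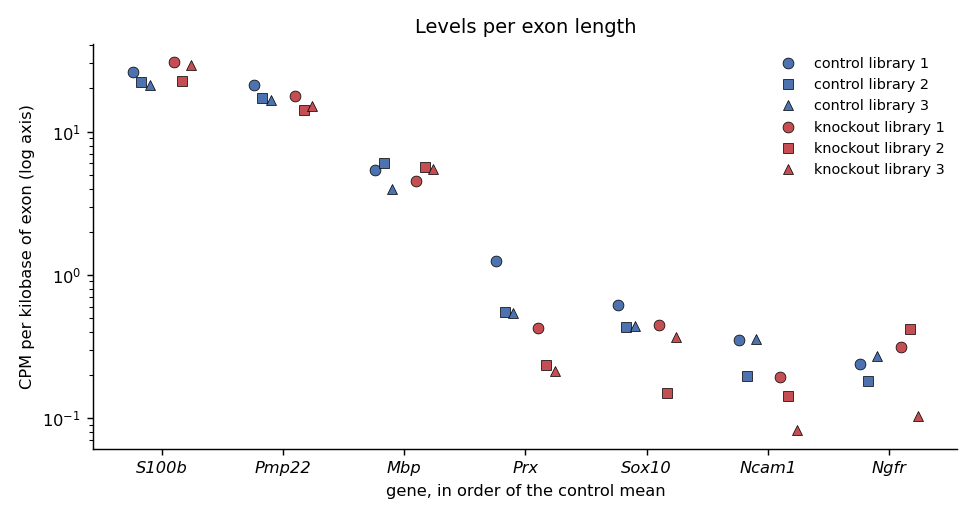
CPM per kilobase of exon on a log axis for the 7 genes, in the order of their control mean, with 1 point per library. S100b, Pmp22 and Mbp lie above 3.9 CPM per kilobase in every library, and the other 4 genes lie below 1.3.

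The 4 genes for which RefSeq (GRCm38.p6) windows around transcription starts were at hand were Pmp22, Prx, S100b and Ngfr. Each window runs from 250 bases before to 50 bases after an annotated start. The windows of Prx, the gene with the largest difference between the groups, of S100b, the most abundant, and of the first of 4 annotated Pmp22 starts are shown to set a myelin gene beside a gene that adipocytes also use. Capitals mark each match to CCAAT or its reverse complement ATTGG, a sequence common near start sites. The windows are chr7:27499074-27499373 (Prx, plus strand), chr10:76253586-76253885 (S100b, plus strand) and chr11:63128732-63129031 (Pmp22, plus strand).
Prx: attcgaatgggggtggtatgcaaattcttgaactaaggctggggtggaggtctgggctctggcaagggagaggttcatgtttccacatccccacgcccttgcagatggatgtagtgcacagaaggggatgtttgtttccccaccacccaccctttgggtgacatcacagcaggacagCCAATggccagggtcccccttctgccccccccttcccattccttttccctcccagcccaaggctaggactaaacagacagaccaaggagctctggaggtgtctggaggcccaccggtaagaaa
S100b: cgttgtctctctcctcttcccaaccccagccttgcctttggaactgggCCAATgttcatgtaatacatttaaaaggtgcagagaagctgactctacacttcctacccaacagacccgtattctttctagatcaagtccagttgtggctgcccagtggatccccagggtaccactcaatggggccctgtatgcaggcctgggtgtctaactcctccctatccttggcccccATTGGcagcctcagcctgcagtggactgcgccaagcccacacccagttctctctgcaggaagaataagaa
Pmp22: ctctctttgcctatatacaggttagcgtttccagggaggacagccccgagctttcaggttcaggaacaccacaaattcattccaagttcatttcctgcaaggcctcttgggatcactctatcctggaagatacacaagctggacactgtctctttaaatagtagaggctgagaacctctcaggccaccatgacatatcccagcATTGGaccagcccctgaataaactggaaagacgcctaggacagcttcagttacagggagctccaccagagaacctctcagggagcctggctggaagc
CCAAT was found 1 time in the Prx window, 2 times in the S100b window and 1 time in the Pmp22 window, and 37.4% of 32851 windows of 300 bases hold it on either strand. The other motifs searched on both strands were ACAAAG and ACAATG, cores that Sox proteins bind, TGACG, the core of the cyclic AMP response element, and TATAAA, the TATA box. They were in none of the windows of the 4 genes, while 18.7%, 12.6%, 20.8% and 13.6% of all windows hold them, in that order. The Prx window was 56.7% G and C, the S100b window 53.7% and this Pmp22 window 50.7%. The counts sum over all starts of a gene, so the 4 Pmp22 starts cannot be told apart.

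Of the 7 genes, Prx showed the widest gap between genotypes. It encodes periaxin, a scaffold protein of the membrane of myelinating Schwann cells (ENSMUSG00000053198, GRCm38 chromosome 7, 27499324 to 27520214, plus strand). Prx stood at 6.95, 3.09 and 3.02 CPM across the controls against 2.37, 1.30 and 1.19 CPM across the knockouts. Every knockout was below every control, and control library 1 was far above the other 2. These levels rest on 118, 54 and 45 counts in controls and 35, 20 and 20 in knockouts. Summed over the groups, 217 against 75 counts give a ratio of 0.363 with a 95% exact binomial interval of 0.276 to 0.474 for counting error only. The edgeR log2 fold change was -1.43 ± 0.44 (SE), with a 95% interval of -2.44 to -0.42 and an adjusted p of 0.305. Without control library 1 it was -0.94, and with the muscle score as covariate it was -0.78 ± 0.56 (SE). The muscle score, the mean log2 CPM of 20 muscle markers, was 9.16 to 9.63 in controls and 8.53, 4.71 and 1.29 in knockouts. It thus ran with genotype, and a fit that holds both cannot tell them apart. Leaving out knockout library 1, the knockout with the most muscle transcripts, gave a Prx value of -1.80 with an edgeR adjusted p of 0.0480. That fit called 812 genes lower and 45 higher of 15188 tested. With no low-count filter, which raised the number of genes in the fit to 31870, Prx was at -1.42 with an edgeR adjusted p of 0.00313. There 782 genes were called lower and 111 higher, against 5 and 4 in the main fit. The antisense gene Gm15541 shares 300 exon bases with Prx and had 3 to 15 counts per library, and the sources used here do not say whether counting used strand.

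Mbp, by contrast, was level between the genotypes. It encodes myelin basic protein, which compacts the inner faces of myelin membranes, and the same locus also makes transcripts used in immune and other cells (ENSMUSG00000041607, GRCm38 chromosome 18, 82475146 to 82585637, plus strand). Its level was 45.6, 51.6 and 33.4 CPM across the controls against 38.2, 48.0 and 46.6 CPM across the knockouts. The groups overlapped throughout, and the lowest and the highest library were both controls. The log2 fold change was 0.02 ± 0.18 (SE; 95% interval -0.39 to 0.44; edgeR adjusted p = 0.978), so differences larger than about 0.44 in either direction lie outside the interval. Its sign turned in 4 of 16 alternatives, each time within the interval. Prx amounted to 15.2%, 6.00% and 9.02% of the Mbp CPM across the controls and to 6.19%, 2.71% and 2.55% across the knockouts. Knockout library 1 thus lay inside the control range of this ratio and the other 2 knockouts below it.

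Pmp22, a small membrane protein of compact myelin that fibroblasts, endothelium and other cells also make, was abundant in every library (ENSMUSG00000018217, GRCm38 chromosome 11, 63128982 to 63159547, plus strand). It stood at 49.8, 40.7 and 39.1 CPM across the controls against 41.8, 33.6 and 35.7 CPM across the knockouts. Knockout library 1 lay within the control range and the other 2 lay below it. The log2 fold change was -0.22 ± 0.14 (SE; 95% interval -0.55 to 0.11; edgeR adjusted p = 0.633). It was -0.12 without control library 1 and -0.06 ± 0.21 with the muscle score as covariate.

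Sox10, the lineage's defining transcription factor, was measured at low depth (ENSMUSG00000033006, GRCm38 chromosome 15, 79154908 to 79165240, minus strand). It had 32, 23 and 20 counts across the controls against 20, 7 and 19 across the knockouts. In CPM this was 1.88, 1.32 and 1.34 in controls against 1.35, 0.456 and 1.13 in knockouts. Knockout library 2 was the lowest, while knockout library 1 was at the level of control libraries 2 and 3. The summed counts of 75 and 46 give a ratio of 0.645 (95% exact binomial interval 0.437 to 0.943, counting error only). Between libraries the spread was wider: the log2 fold change was -0.63 ± 0.44 (SE; 95% interval -1.64 to 0.39; edgeR adjusted p = 0.665), and -0.29 without knockout library 2.

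The adhesion molecule Ncam1 was the other gene without overlap between the groups. It encodes the neural cell adhesion molecule, made by non-myelinating Schwann cells and also by neurons and by muscle (ENSMUSG00000039542, GRCm38 chromosome 9, 49502136 to 49798925, minus strand). Ncam1 stood at 3.06, 1.72 and 3.08 CPM across the controls against 1.69, 1.24 and 0.713 CPM across the knockouts. Control library 2 and knockout library 1 were nearly equal, at 30 and 25 counts. The log2 fold change was -1.11 ± 0.40 (SE; 95% interval -2.04 to -0.18; edgeR adjusted p = 0.394), and it was -0.43 ± 0.54 with the muscle score as covariate. The summed counts, 128 in controls and 56 in knockouts, gave a ratio of 0.460 (95% exact binomial interval 0.330 to 0.634). Gm11149, an antisense gene that shares 417 exon bases with Ncam1, had at most 1 count in a library.

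Ngfr was the least abundant of the 7 in controls. It encodes the p75 receptor, which binds all neurotrophins and is high on non-myelinating and injured Schwann cells (ENSMUSG00000000120, GRCm38 chromosome 11, 95568818 to 95587735, minus strand). Its counts were 14, 11 and 14 across the controls against 16, 22 and 6 across the knockouts, or 0.824, 0.630 and 0.938 CPM against 1.08, 1.43 and 0.356 CPM. The knockouts held both the highest and the lowest library. The log2 fold change of 0.26 ± 0.52 (SE; 95% interval -0.95 to 1.47; edgeR adjusted p = 0.910) was smaller than its error. It was -0.16 without knockout library 2 and 1.00 ± 0.72 with the muscle score as covariate.

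S100b was slightly higher in knockouts, with overlapping groups (ENSMUSG00000033208, GRCm38 chromosome 10, 76253853 to 76261159, plus strand). Its level was 38.9, 32.8 and 31.3 CPM across the controls against 45.1, 33.5 and 43.4 CPM across the knockouts. Knockout libraries 1 and 3 lay above all controls, and knockout library 2 lay among them. The log2 fold change was 0.25 ± 0.15 (SE; 95% interval -0.11 to 0.60; edgeR adjusted p = 0.625). It was positive in each of 16 alternatives, from 0.15 without control library 3 to 0.37 without knockout library 2. Within a library, the Pmp22 CPM was 128%, 124% and 125% of the S100b CPM across the controls and 92.7%, 100.2% and 82.2% across the knockouts. This ratio was close to constant in controls and lower in each knockout; the pair was set side by side after the levels were seen, so no test is given.

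**Figure D3:**
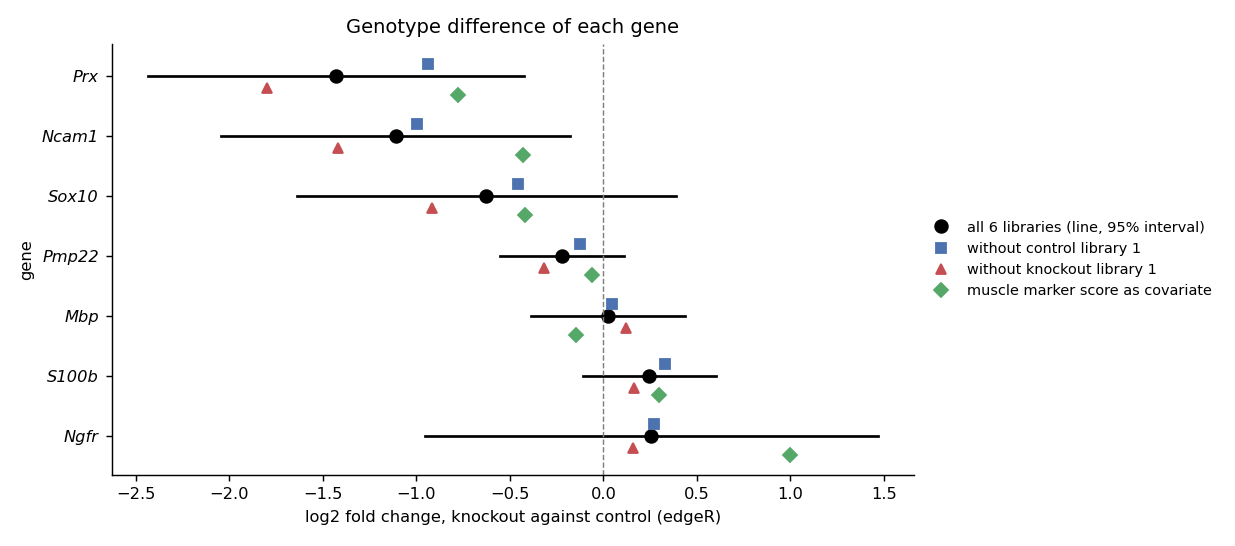
edgeR log2 fold change of knockout against control for each of the 7 genes (horizontal axis), with its 95% interval from all 6 libraries (black) and the value without control library 1, without knockout library 1 or with the muscle score as covariate. Prx (-1.43) and Ncam1 (-1.11) have intervals below 0 before adjustment for the number of genes. With the covariate both move toward 0, to -0.78 ± 0.56 and -0.43 ± 0.54 (SE). The muscle score was higher in every control than in every knockout, so that fit cannot tell genotype and muscle content apart.

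No other gene of the myelin sheath passed the test either. Of 16 listed myelin proteins and lipid enzymes, 10 were tested, 9 of those lay below 0 in log2 fold change (median -0.58) and 0 were called; 3 were at an unadjusted p under 0.05, all lower. Of all 14767 tested genes, 7134 lay below 0 and 7.60% were lower at that p. Gjc3, a gap junction protein, was the listed gene with a positive value (0.56), singled out after its value was seen. Drp2, which binds periaxin in a complex at the outer Schwann cell membrane, stood at 4.18, 2.18 and 1.81 CPM across the controls against 1.83, 0.652 and 0.416 CPM across the knockouts. The groups overlapped by a narrow margin, with knockout library 1 just above control library 3 and the other 2 knockouts below all controls. Its log2 fold change was -1.51 ± 0.57 (SE, edgeR adjusted p = 0.418), and -0.31 ± 0.59 with the muscle score as covariate. It was -2.35 without knockout library 1 (edgeR adjusted p = 0.0270) and -1.50 with no low-count filter (edgeR adjusted p = 0.0202). Both of the latter fits called far more genes than the main fit, as given for Prx. Gjb1, the gap junction protein connexin of myelinating cells (-1.22 ± 0.52, SE), and Cd9, a tetraspanin of many cell types (-0.55 ± 0.24), also had negative values, which were -0.62 and -0.28 with the muscle score as covariate. Of 15 listed myelin genes with at least 15 counts in all, control library 1 was the highest library for 11, and knockout library 2 or 3 the lowest for 10.

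Regulators of the lineage were mixed. Egr2, the transcription factor that switches on the myelin programme, stood at 1.47, 0.802 and 0.670 CPM across the controls against 0.271, 0.652 and 0.119 CPM across the knockouts. Every knockout was below every control, but knockout library 2 was close to control library 3, at 10 counts each. Its log2 fold change was -1.50 ± 0.63 (SE; edgeR adjusted p = 0.461), and it was -0.97 with the muscle score as covariate and -2.32 without knockout library 2. Of the 10 listed glial factors, 5 were tested, 3 negative and 2 positive (median 0.00), 0 called, and the rest were below the low-count filter. The median was that of Yy1, named for this reason, which had a mean of 61.0 CPM in each group. It does not describe Egr2, which was among the 5. Zeb2 (-0.09 ± 0.16), Nfatc4 (0.07 ± 0.25) and Jun (0.01 ± 0.29) are active in many cells and were within 1 standard error of 0 (log2 fold change, SE). With the muscle score as covariate Jun was at 0.64 ± 0.24, Zeb2 at -0.31 ± 0.23 and Nfatc4 at 0.05 ± 0.39 (SE), and Jun was at -0.44 without knockout library 1.

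Of 12 listed genes of non-myelinating and precursor Schwann cells, 8 were tested, 7 of those lay below 0 (median log2 fold change -0.34), beside 7134 of all 14767 tested genes, and 0 were called. Scn7a, a sodium channel of non-myelinating Schwann cells, stood at 16.1, 10.3 and 11.9 CPM across the controls against 7.51, 12.1 and 9.38 CPM across the knockouts. Here knockout library 1, not library 3, was the lowest, and the groups overlapped (log2 fold change -0.40 ± 0.24, SE; edgeR adjusted p = 0.604). Cdh19, a cadherin of Schwann cell precursors (-0.11 ± 0.30, SE), and Gfra3, the artemin receptor (0.34 ± 0.35), were named after their values were seen and had overlapping groups. Plekhb1 (-0.81 ± 0.27) and Art3 (-0.38 ± 0.14) were lower in every knockout than in every control, with edgeR adjusted p values of 0.337 and 0.400, and Matn2, a matrix protein, was at -0.39 ± 0.21 (SE). Without knockout library 1, a fit that called 812 genes lower, Plekhb1 was at -1.12 (edgeR adjusted p = 0.0147). With the muscle score as covariate Plekhb1 was at -0.24. The covariate took Matn2 to -0.72, Cdh19 to -0.67 and Scn7a to -0.59, and Gfra3 below 0. The lowest library was knockout 1 for 5 of the 10 genes in this list with at least 15 counts, against 2 of 15 for the myelin list.

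**Figure D4:**
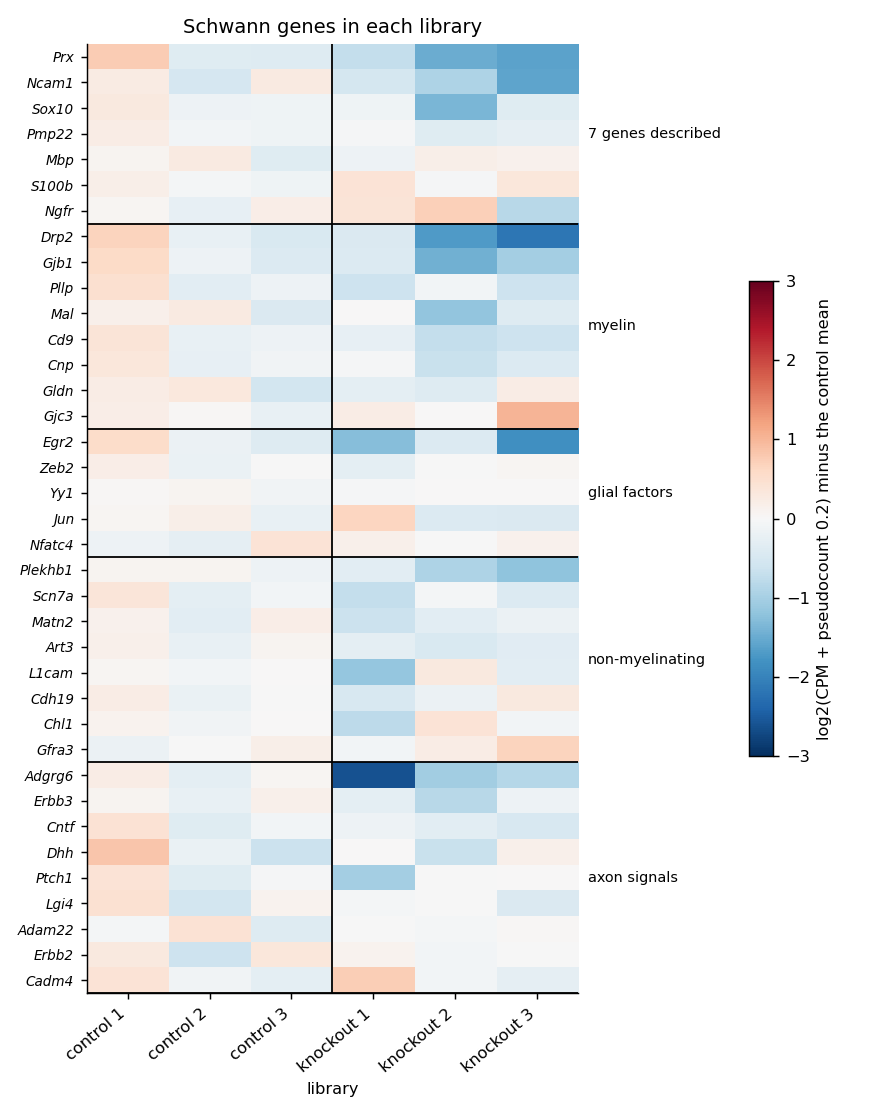
Level of tested Schwann genes in each library as log2(CPM + 0.2) minus the control mean of the gene (colour, limited at 3 in either direction), with genes in rows by list and libraries in columns. Drp2 and Prx are blue in knockout libraries 2 and 3, while the non-myelinating genes show no common low library. Adgrg6 is a deeper blue in knockout library 1, where it had 0 counts. Some tested genes of the lists are not shown.

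No listed signal between axon and Schwann cell passed the test. Of 12 listed, 9 were tested, 8 of those lay below 0 (median log2 fold change -0.31), beside 7134 of all 14767 tested genes, and 0 were called. Erbb3, the Schwann cell receptor for neuregulin, had a control mean of 4.50 ± 0.59 CPM and a knockout mean of 3.35 ± 0.84 CPM (SD, n = 3 each; log2 fold change -0.43 ± 0.26, SE; edgeR adjusted p = 0.620). Adgrg6, an adhesion receptor that raises cyclic AMP at the start of myelination, had 21, 14 and 16 counts across the controls against 0, 6 and 8 across the knockouts. Each knockout was below each control, with a log2 fold change of -1.79 ± 0.72 (SE; edgeR adjusted p = 0.447). It was -4.09 with the muscle score as covariate and -1.24 without knockout library 1, the library with 0 counts. Cntf, ciliary neurotrophic factor (-0.39 ± 0.33, SE), and Ptch1, the receptor for hedgehog ligands (-0.31 ± 0.31), had intervals that spanned 0. Ptch1 was at -1.01 ± 0.38 (SE) with the muscle score as covariate, -0.036 without knockout library 1 and -0.080 without control library 1, and Cntf was at -0.14 with the covariate.

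Neurotrophic factors and receptors lay on both sides of 0. Of 20 listed, 16 were tested, 8 were negative and 8 positive (median 0.03), and 0 were called. Ntrk2, the receptor of brain-derived neurotrophic factor, was named after its values were seen. It was far more abundant than Ngfr per exon length and stood at 194 ± 11.5 and 221 ± 27.5 CPM (SD, n = 3 each; log2 fold change 0.19 ± 0.14, SE). Ntf5, neurotrophin 4, had 12, 11 and 20 counts across the controls against 8, 1 and 0 across the knockouts (log2 fold change -2.14 ± 0.91, SE; edgeR adjusted p = 0.470). Without knockout library 1, a fit that called 812 genes lower, it was -4.52 (edgeR adjusted p = 0.0266). With the muscle score as covariate it was -0.19. Ret and its partner Gfra1, which together form the receptor of glial cell line-derived neurotrophic factor, were lower in every knockout than in every control. The control and knockout means were 2.50 ± 0.23 and 1.32 ± 0.53 CPM for Ret and 1.43 ± 0.30 and 0.709 ± 0.160 CPM for Gfra1 (SD, n = 3 each; edgeR adjusted p = 0.439 and 0.392). The log2 fold change of Ret was -0.92, and -0.33 with the muscle score as covariate.

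Clstn3, whose locus makes a brown adipocyte transcript linked to S100b secretion, was listed with the neurotrophic factors. It was the 1 tested gene of the Schwann cell, axon and neurotrophin lists with every knockout above every control. That pattern was seen in 7.63% of all tested genes, so it does not set Clstn3 apart. It stood at 276, 338 and 362 CPM across the controls against 517, 391 and 445 CPM across the knockouts. Its log2 fold change was 0.47 ± 0.16 (SE; 95% interval 0.10 to 0.84; edgeR adjusted p = 0.356). The counts do not separate that transcript from the neuronal form of the gene. Knockout library 1 was the highest of the 6 libraries for both Clstn3 and S100b, as it was for 6 of 12 brown adipocyte markers.

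The cell bodies of sympathetic neurons lie in ganglia outside the fat, and transcripts listed for their axons were scarce here. Which cells made those that were found was not tested. Of 16 listed, 3 were tested, all 3 with a negative log2 fold change and 0 called: Slc18a2, the vesicular monoamine transporter (-0.42 ± 0.33, SE), Stmn2, a tubulin-binding protein of growing axons (-0.32 ± 0.28), and Uchl1, a neuronal deubiquitinase (-0.58 ± 0.69). Dbh, Npy and Prph had 0 counts in all 6 libraries. Th, the rate-limiting enzyme of noradrenaline synthesis, was below the filter and was chosen after its values were seen. It had 8, 14 and 3 counts in control libraries 1 to 3 and 0 in each knockout library, at least 7.93-fold lower when the summed counts of the knockout group are set to a floor of 3.

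Markers of other cell types were set beside these results, since several of the 7 genes are not restricted to nerve. The 20 skeletal muscle markers summed to 16236 to 22346 CPM in controls and 114 to 10175 CPM in knockouts. The myelin list summed to 33.8 to 69.4 CPM in controls and 23.2 to 38.4 CPM in knockouts. It was highest in library 1 of each group, as were the muscle markers and the fibroblast markers. The 12 non-myelinating and precursor genes summed to 63.4 to 82.5 CPM in controls and 52.7 to 58.9 CPM in knockouts, lowest in knockout library 1, and Art3 alone made up the largest part. All 10 fibroblast markers were tested and 9 were negative (median -0.71), with sums of 597 to 874 CPM in controls and 370 to 562 CPM in knockouts. Of 10 macrophage markers 9 were negative (median -0.37), with overlapping sums of 93.9 to 180 and 73.3 to 159 CPM. Endothelial (2 of 10 negative, median 0.06), pericyte and smooth muscle (6 of 10, median -0.16) and brown adipocyte markers (0 of 12, median 0.27) were all tested too. None of the fibroblast, macrophage, endothelial, pericyte and smooth muscle or brown adipocyte markers was called. Of all 14767 tested genes, 7134 were negative. Melanocyte markers, which share Sox10, summed to 6.76 to 8.77 CPM in controls and 5.55 to 6.98 CPM in knockouts, with Tyrp1 at 0 in every library. Mitf, named as the most abundant of them, made up the largest part, with means of 6.69 CPM in controls and 5.07 CPM in knockouts. Oligodendrocyte markers, which share Mbp and Sox10, summed to 4.42 to 5.56 and 2.91 to 5.74 CPM, with Olig2 at 0 in every library. Gpr17, named as the most abundant of these, made up the largest part, with means of 3.84 CPM in controls and 3.58 CPM in knockouts. The 10 lymphocyte markers, of which 2 were tested, summed to 3.82 to 5.10 CPM in controls and 1.90 to 4.16 CPM in knockouts. The part of fibroblasts and macrophages in the levels of the 7 genes was not tested.

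**Figure D5:**
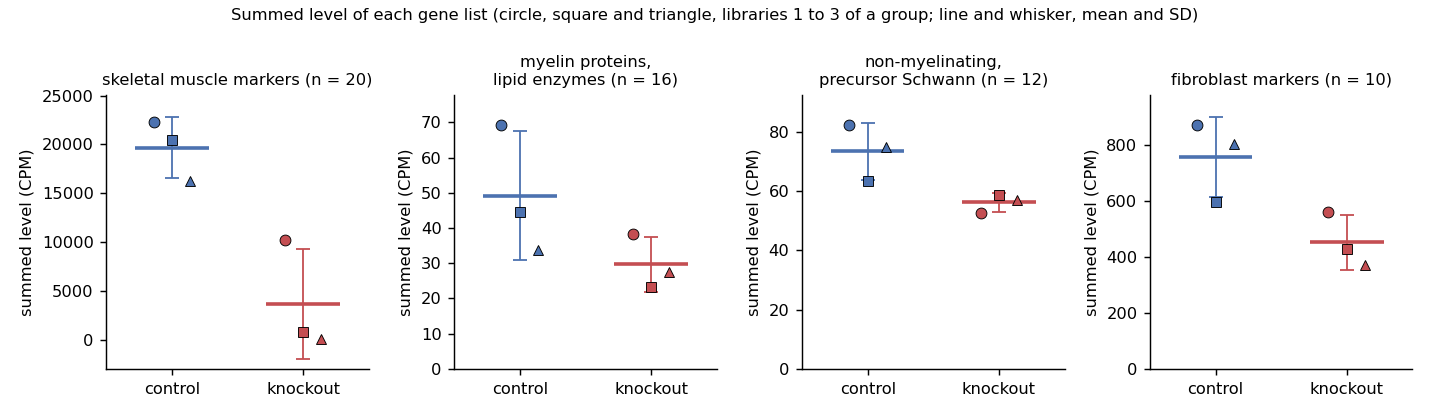
Summed CPM of 4 gene lists in each library (vertical axes with separate scales), with mean and SD of 3 libraries per group. Muscle markers run from 114 to 22346 CPM over the 6 libraries, the myelin list from 23.2 to 69.4, the non-myelinating list from 52.7 to 82.5 and fibroblast markers from 370 to 874.

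The 7 genes did not share a single profile over the 6 libraries. Likeness was measured as the root mean square difference in log2 CPM over the 6 libraries, after each gene was centred on its own mean, and it describes these libraries only. The nearest pair among the 7 was Pmp22 and S100b, at 0.24, followed by Pmp22 and Mbp at 0.29. The measure is small for any genes that vary little. Pmp22 and S100b had log2 fold changes of opposite sign, -0.22 and 0.25. Prx and Ncam1 were each other's nearest, at 0.41, and Ngfr was 0.57 from its nearest, Pmp22. Outside the 7, the genes most like Prx were Ppp2r3a, a phosphatase subunit (0.22), and Ube2d1, a ubiquitin-conjugating enzyme (0.22). Ppp2r3a stood at 70.8, 53.6 and 42.8 CPM across the controls against 29.0, 17.7 and 17.0 CPM across the knockouts, with control library 1 and knockout library 1 highest in their groups as for Prx. Nearest to Ncam1 were Mmp3, a matrix metalloproteinase, and Nhsl1 (0.10 each), and nearest to Sox10 were Lpcat2 (0.11) and Bmp7 (0.12). Pmp22 was closest to Ptp4a2 and Csgalnact2 (0.02 each), S100b to Bnip1 and Mthfd2l (0.04 each), Mbp to Orai2 (0.05) and Zxdb (0.06), and Ngfr to Batf2 (0.12) and Rpl39l (0.16).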

How the data were processed

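The labels' protocols describe paired-end sequencing of polyadenylated RNA with NEBNext Ultra II libraries. The authors deposited estimated counts for each gene, neither normalized nor whole, judging by the values in the table. StringTie, Salmon, edgeR and GRCm38 are named in the submitters' processing notes; for versions, settings and strand use the sources used here say nothing. GENCODE vM21 gave symbols and positions (54131 of 54385 identifiers matched), and the names in the sample descriptions tied columns to samples.

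Counts were rounded, filtered by filterByExpr (at least 10 counts in enough libraries, at least 15 in all) and tested with edgeR 4.0.16 in R 4.3.3: glmQLFTest, two-sided, genotype alone in the model, TMM factors, Benjamini-Hochberg adjustment over every tested gene, threshold 0.05. The procedure was tested on simulated counts in which genes varied independently. That test does not cover shifts shared by many genes, such as that of the muscle transcripts. CPM values divide a count by the TMM-scaled library size, per 1000000. The standard error is the log2 fold change over the root of F. The muscle marker score is the mean log2 CPM (prior count 2) of 20 muscle markers. The floor for a group at 0 is 3 counts over the group; floors and count intervals cover counting error only. Within each group, no library was a copy of another (chi-square test beyond sampling noise). Alternatives replaced TMM by RLE or upper-quartile factors, edgeR by DESeq2 1.42.0 or limma-voom (limma 3.58.1), and filterByExpr by no filter or by 1 CPM in 3 libraries; others were a replicate block, leaving out a library, the muscle score as covariate, and scaling without muscle or without mitochondrial genes.

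The 7 genes and all lists were chosen with earlier results of these data known. Named were the 7, every called gene and up to 4 genes with the smallest p from each Schwann, axon or neurotrophin list, and the 2 genes nearest in profile to each of the 7, unnamed models aside; genes outside this rule are marked. Some listed genes count in the list totals and are not reported here one by one.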

Additional observations from a re-analysis of the deposited data

How the results depend on the processing

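Of the 7 genes, 0 were called in 14 of 16 alternatives; Prx was the 1 called without a low-count filter (adjusted p = 0.00313) and the 1 called without knockout library 1, so that leaving out each library in turn gave 0 to 1. Over all genes, DESeq2 called 31 higher and 276 lower, limma-voom 27 lower, the fit without a low-count filter 111 and 782, and the muscle marker score as covariate 10 and 8. Leaving out each library gave 3 to 45 higher and 1 to 812 lower, the largest counts without knockout library 1. The replicate block called 2 higher and 2 lower; deviations of same-numbered libraries correlated at 0.07, 0.11 and 0.05, so the number was not taken as a pairing. With that block Jun was at -0.072, and with limma-voom Jun was at -0.082 and Batf2 at -0.056. With the muscle score as covariate Mbp was at -0.15, Orai2 at -0.10, Zxdb at -0.046, Gfra3 at -0.26 and Stmn2 at 0.0071. Leaving out each library moved Mbp between -0.16 and 0.14, Ngfr between -0.16 and 0.66, Zeb2 between -0.21 and 0.0091, Nfatc4 between -0.080 and 0.28, Jun between -0.44 and 0.19, Uchl1 between -1.07 and 0.21, Orai2 between -0.14 and 0.21, Zxdb between -0.13 and 0.20, Batf2 between -0.23 and 0.45 and Cdh19 between -0.36 and 0.071. None of these genes was called in those fits, and the causes were not tested. Sox10 and Ngfr rest on 6 to 32 counts per library. Ntf5 did not pass the low-count filter without control library 1, so that fit gave it no value, and Adgrg6, Batf2, Bmp7, Egr2, Gjb1, Lpcat2, Ntf5 and Uchl1 did not pass the filter of 1 CPM in 3 libraries.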
